A study of Mus musculus with 4 samples.

Results

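The genes described here are the receptors of the activin and TGF-β family, taken by name from the 4 deposited count tables of lung tumor-infiltrating CD4+ T cells. They comprise 10 of the 25239 gene symbols listed and cover the type I, type II and type III receptors. All 10 were among the 13919 genes that passed the expression filter. The family includes the gene that was targeted in these mice, *Acvr1b*, which encodes the activin receptor ALK4. The members were chosen by name and by receptor class, with earlier results of these data known.

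The samples comprised 2 WT libraries and 2 from mice labelled CD4/ALK4-KO (CD4CreERT2+/-/Acvr1bfl/fl), from mice on the C57BL/6 background. According to the methods, the mice were males of 8 to 10 weeks, the Cre recombinase was under the control of the *Cd4* promoter, and it was induced with 5 daily doses of 75 mg/kg tamoxifen. All mice received 500000 LLC-OVA cells into a vein, which are Lewis lung carcinoma cells made to express ovalbumin, and tumors were taken on days 18 to 22 by the sample labels or on days 16 to 20 by the methods. The CD4+ T cells were isolated from the leukocytes of digested tumor-bearing lungs, and their purity is not given in the sources used here. Whether the WT mice carried the floxed allele or received tamoxifen, and whether mice were pooled for a library, is not given either. The sources do not say that replicate libraries came from separate mice, so p-values measure only the spread between these libraries, which may be technical.

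Ligands of this family are dimers that bring together type II and type I receptors, both of which are transmembrane serine/threonine kinases. The type II receptor phosphorylates the type I receptor at its GS domain, a stretch rich in glycine and serine just before the kinase domain, and the type I receptor then phosphorylates SMAD proteins. The type I receptors ALK4 (*Acvr1b*) and TGFBR1 (*Tgfbr1*) act on the SMAD proteins of the activin and TGF-β branch, and *Acvr1*, *Acvrl1* and *Bmpr1a* encode type I receptors that act on those of the BMP branch. *Acvr2a*, *Acvr2b* and *Bmpr2* encode type II receptors for activins and BMPs, *Tgfbr2* encodes the type II receptor for TGF-β, and *Tgfbr3* encodes betaglycan, a type III co-receptor without a kinase. In T cells, TGF-β signaling is known for restraining activation and for its part in regulatory T cell differentiation.

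The coding sequence of the GS domain shows how the type I members are related, and which of them is nearest to the targeted gene. In each type I member 75 bases were read 5′ to 3′ along the gene from the GENCODE M21 transcripts (mouse genome build GRCm38), with the 7 codons of the shared glycine- and serine-rich core in capitals.
Acvr1b: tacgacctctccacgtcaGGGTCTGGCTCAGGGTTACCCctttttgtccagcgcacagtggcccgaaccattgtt
Tgfbr1: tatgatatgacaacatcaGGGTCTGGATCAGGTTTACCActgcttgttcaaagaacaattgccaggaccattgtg
Acvr1: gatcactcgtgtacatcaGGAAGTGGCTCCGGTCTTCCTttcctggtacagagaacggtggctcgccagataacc
Acvrl1: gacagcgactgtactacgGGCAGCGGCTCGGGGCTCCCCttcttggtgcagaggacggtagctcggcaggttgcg
Bmpr1a: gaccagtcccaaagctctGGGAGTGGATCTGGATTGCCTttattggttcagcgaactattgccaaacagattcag

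These bases are coding sequence in exons 3 and 4 of *Acvr1b* (chr15:101195027-101198827, plus strand) and in exons 3 and 4 of *Tgfbr1* (chr4:47393459-47396398, plus strand), with an intron between their first and last base. They lie in exon 5 of *Acvr1* (chr2:58474189-58474263, minus strand), in exon 6 of *Acvrl1* (chr15:101136137-101136211, plus strand) and in exons 8 and 9 of *Bmpr1a* (chr14:34425109-34429700, minus strand). The 7-residue core was found in the translated coding sequence of 7 of 21595 mouse genes, which were the 5 type I members and the other type I receptor genes *Acvr1c* and *Bmpr1b*. It was in none of the 5 type II and type III members. *Tgfbr1* matched *Acvr1b* at 54 of the 75 bases and at 21 of the 25 encoded residues, against 41 or 42 bases and 15 to 17 residues for the other type I members. Over the whole protein, ALK4 was 70.2% identical to TGFBR1 and 48.8% to 50.9% identical to the type I receptors of the BMP branch. The closest pair among the type II members was *Acvr2a* and *Acvr2b*, at 67.3% identity.

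The libraries held 11823908 to 13943237 counts, and 8608 to 9749 of them fell on the 10 receptors. *Cd4* had 55.4 and 48.0 CPM (counts for every 1000000 counts of the TMM-adjusted library size) in the WT-labelled libraries and 307 and 327 CPM in the CD4/ALK4-KO-labelled ones. All 16 genes of a T cell identity list were called higher in the CD4/ALK4-KO-labelled libraries on this scale, where they summed to 3362 to 3640 CPM against 703 to 744 CPM. Genes of other cell types were present in every group. Summed fibroblast markers stood at 6823 to 7420 CPM in the WT-labelled libraries and at 4243 to 4981 CPM in the CD4/ALK4-KO-labelled ones, macrophage markers at 2048 to 3038 and 1949 to 2267 CPM, epithelial markers at 947 to 968 and 496 to 629 CPM, and B cell markers at 65.3 to 77.1 and 205 to 424 CPM. The lists did not move as one on the TMM scale, on which 17.4% of all genes tested were called higher and 15.4% lower. Of the 10 fibroblast markers 4 were called lower, 5 were not called and 1, *Thy1*, which T cells also express, was called higher, and the collagen gene with the most counts, *Col3a1*, had 2728 ± 85.0 and 1434 ± 14.6 CPM (SD, n = 2). Of the 9 epithelial markers tested 5 were called lower and 2 higher, the latter being *Epcam* (log2 fold change 2.31) and *Cdh1* (1.77), named after their values were seen. In these bulk libraries, fewer cells of a type and less RNA per cell cannot be told apart.

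Of the 10 receptors, *Tgfbr2* rose and *Acvr1*, *Bmpr1a* and *Acvr2b* fell in the CD4/ALK4-KO-labelled libraries on the TMM scale, while *Acvr1b*, *Tgfbr1*, *Acvrl1*, *Acvr2a*, *Bmpr2* and *Tgfbr3* did not pass an adjusted p of 0.05. The test was edgeR's quasi-likelihood test, adjusted over the 13919 genes tested. In the higher direction 1 of 10 members was called, where 17.4% of all genes tested were, and in the lower direction 3 of 10 were, where 15.4% of all genes were. In either direction, 4 of 10 members were called, against 32.8% of all genes, so that the share called among the receptors was near that of the transcriptome. The median log2 fold change was -0.018 over the receptors and -0.0082 over all genes tested, and the summed receptor counts were 658 and 721 CPM in the WT-labelled libraries and 723 and 706 CPM in the CD4/ALK4-KO-labelled ones. The groups overlapped in this total.

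**Figure D1:**
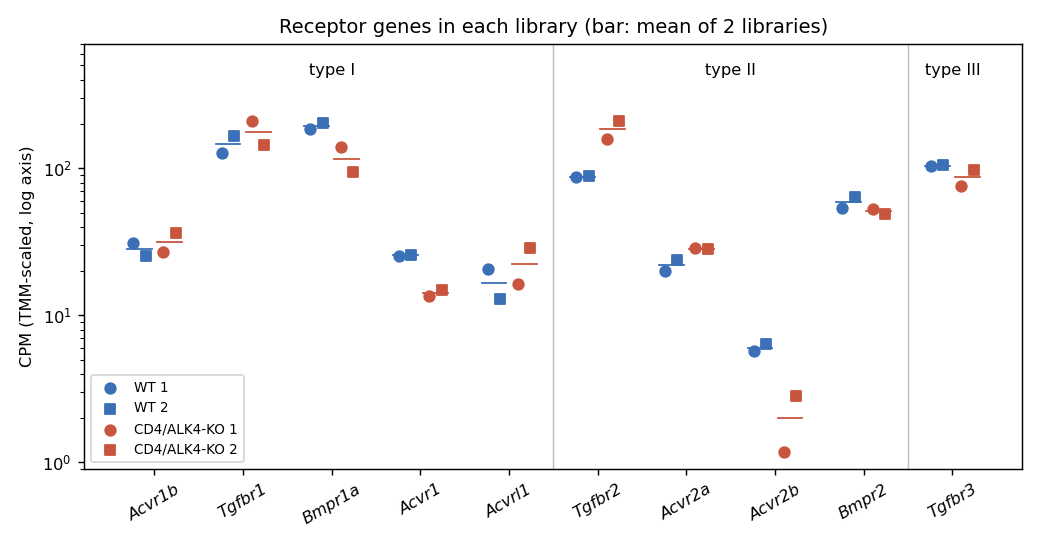
CPM of the 10 receptor genes on a log axis in each of the 4 libraries (circles, replicate 1; squares, replicate 2; short bars, mean of 2 libraries), with type I, II and III receptors apart. *Tgfbr2* lies higher in both CD4/ALK4-KO-labelled libraries (159 and 211 CPM) than in both WT-labelled ones (87.1 and 88.3 CPM), whereas *Bmpr1a*, *Acvr1* and *Acvr2b* lie lower and the values of *Acvr1b* overlap.

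The scale on which libraries are compared decides the sign of several of these values. The 4 CD3 chain genes *Cd3d*, *Cd3e*, *Cd3g* and *Cd247*, which form the signaling part of the T cell receptor, summed to 181 to 193 CPM in the WT-labelled libraries and to 804 to 905 CPM in the CD4/ALK4-KO-labelled ones. When the libraries were scaled to these genes in place of TMM, the log2 fold changes of all genes shifted by a median of -2.18. All 10 receptors were called lower on this scale, where 92.0% of all genes tested were. On it the median log2 fold change of the 16 T cell identity genes was 0.19. That list includes the 4 CD3 chain genes that set the scale, so its median is in part fixed by the scaling. The order of the receptors was the same on both scales, from *Tgfbr2* at the top, with a log2 fold change of -1.10, to *Acvr2b* at the bottom, with -3.74.

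The targeted gene *Acvr1b* (chromosome 15, 101174067 to 101213684, GENCODE M21 on GRCm38 as for the genes that follow) had 31.1 and 25.3 CPM in the WT-labelled libraries, from 426 and 342 counts, and 27.1 and 36.0 CPM in the CD4/ALK4-KO-labelled ones, from 322 and 445 counts. The groups overlapped, and the highest value was in a CD4/ALK4-KO-labelled library. The log2 fold change was 0.16 with a 95% interval of -0.34 to 0.67 (adjusted p = 0.66, edgeR), and -2.01 on the CD3 scale. No call was made under any of the 11 other settings tried outside the CD3 scale (adjusted p = 0.23 to 0.99). The counts are sums over all exons of a gene, and which exons the floxed allele loses is not given in the sources used here, so they do not separate the deleted part of the transcript from the rest. The share of the *Acvr1b* counts from cells in which the *Cd4* promoter is not active was not tested.

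*Tgfbr1*, the type I receptor nearest to ALK4 in sequence (chromosome 4, 47353222 to 47414931), had 127 and 167 CPM in the WT-labelled libraries and 210 and 143 CPM in the CD4/ALK4-KO-labelled ones. Its groups overlapped too, with the highest value in CD4/ALK4-KO replicate 1. The log2 fold change was 0.27 (95% interval -0.21 to 0.75, adjusted p = 0.41, edgeR). Without CD4/ALK4-KO replicate 1 it was -0.0030, and without CD4/ALK4-KO replicate 2 it was 0.51 and passed the threshold (adjusted p = 0.028, 0.028 to 0.99 over the settings outside the CD3 scale).

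*Bmpr1a*, a type I receptor for BMP ligands (chromosome 14, 34410734 to 34503341), had the highest level per length of exon of all receptors in the WT-labelled libraries (30.5 ± 2.08 RPKM, CPM for each kilobase of exon, SD, n = 2). It had 185 and 203 CPM there and 139 and 94.1 CPM in the CD4/ALK4-KO-labelled ones, with no overlap. The log2 fold change was -0.74 (SE 0.23, adjusted p = 0.015, edgeR), which is 0.600 of the WT level, and -2.94 on the CD3 scale. The groups of *Acvr1*, the type I receptor ALK2 (chromosome 2, 58388644 to 58567157), were each narrow. It had 25.5 and 25.8 CPM in the WT-labelled libraries and 13.4 and 14.9 CPM in the CD4/ALK4-KO-labelled ones, a log2 fold change of -0.85 (SE 0.26, adjusted p = 0.015, edgeR) or 0.553 of the WT level, and -3.04 on the CD3 scale. With the replicate number as a block, neither *Bmpr1a* (adjusted p = 0.057, 1.61e-05 to 0.156 over the settings outside the CD3 scale) nor *Acvr1* (adjusted p = 0.063, 0.00131 to 0.132 likewise) passed the threshold with edgeR. The summed fibroblast and epithelial markers, given above, were lower in the same libraries, and their part in these falls was not tested. *Bmpr1a* shares 290 bp of exon with a gene on the opposite strand, *Gm17110*, which is not among the symbols listed. Reads of the 2 genes cannot be told apart in the shared bases, since the library kit does not mark strand.

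*Acvrl1* encodes ALK1, which is best known from endothelial cells, and lies 28730 bp from *Acvr1b* on the same strand of chromosome 15 (101128522 to 101145336). It had 20.5 and 12.9 CPM in the WT-labelled libraries and 16.2 and 28.8 CPM in the CD4/ALK4-KO-labelled ones, so that the groups overlapped and replicates differed by 0.67 and 0.83 on the log2 scale. The log2 fold change was 0.43 (95% interval -0.19 to 1.06, adjusted p = 0.29, edgeR). Without CD4/ALK4-KO replicate 1 it was 0.82 and passed the threshold (adjusted p = 0.0099, 0.0099 to 0.92 over the settings outside the CD3 scale), and without CD4/ALK4-KO replicate 2 it was -0.047. On the TMM scale 17.4% of all genes tested were called higher and 15.4% lower. Of 12 endothelial markers 11 were tested, and 1 was called higher and 2 were called lower in the CD4/ALK4-KO-labelled libraries. The higher one was *Pecam1*, which leukocytes also express, with 22.6 and 42.7 against 106 and 108 CPM. The lower ones were *Egfl7*, with 14.7 and 10.9 against 1.34 and 5.35 CPM, and *Cldn5*, both named after their values were seen. The endothelial list summed to 88.8 to 103 CPM in the WT-labelled libraries and to 142 to 164 CPM in the CD4/ALK4-KO-labelled ones, but without *Pecam1* to 60.3 to 66.3 and 35.8 to 55.4 CPM, which is the other direction. *Robo4* had 7 and 7 counts in the WT-labelled libraries and 0 and 1 in the CD4/ALK4-KO-labelled ones, too few to be tested. The part of endothelial cells in the *Acvrl1* values was not tested. *Acvrl1* also shares 127 bp of exon with *Gm16031* on the opposite strand, which is not among the symbols listed.

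Among the type II receptors, *Tgfbr2* (chromosome 9, 116084293 to 116175360) rose. It had 87.1 and 88.3 CPM in the WT-labelled libraries, from 1194 and 1195 counts, and 159 and 211 CPM in the CD4/ALK4-KO-labelled ones, from 1894 and 2606 counts. The WT values were nearly equal, and both CD4/ALK4-KO values lay well above them. On the TMM scale the log2 fold change was 1.08 (SE 0.22, adjusted p = 0.00062, edgeR), or 2.11-fold, whereas on the CD3 scale it was -1.10. It was called higher in all 11 other settings tried outside the CD3 scale, with log2 fold changes of 0.85 to 1.30 as each library was left out. On the same scale the median log2 fold change of the 16 T cell identity genes was 2.37, and their part in the rise of *Tgfbr2* was not tested.

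The type II receptors *Acvr2a* and *Acvr2b* both bind activins. *Acvr2a* (chromosome 2, 48814109 to 48903269) had 19.9 and 23.9 CPM in the WT-labelled libraries and 28.6 and 28.3 CPM in the CD4/ALK4-KO-labelled ones, a log2 fold change of 0.38 (95% interval -0.14 to 0.89, adjusted p = 0.26, edgeR). Its groups did not overlap, and 446 bp of its exons overlap those of *Orc4* on the opposite strand, a gene with 784 to 1381 counts a library. *Acvr2b* (chromosome 9, 119402118 to 119434995) had few counts, with 78 and 86 counts in the WT-labelled libraries and 14 and 35 counts in the CD4/ALK4-KO-labelled ones. In CPM these were 5.69 and 6.36 against 1.18 and 2.84, and the log2 fold change of -1.58 (SE 0.46, adjusted p = 0.011, edgeR) was the largest fall among the members. The few counts limit its precision, and the CD4/ALK4-KO replicates differed by 1.27 on the log2 scale. Without CD4/ALK4-KO replicate 1 its log2 fold change was -1.05 and no longer passed (adjusted p = 0.0511, 8.21e-05 to 0.102 over the settings outside the CD3 scale).

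The remaining members, *Bmpr2* and *Tgfbr3*, did not pass the threshold. *Bmpr2* (chromosome 1, 59763400 to 59879014) had 53.6 and 63.6 CPM in the WT-labelled libraries and 53.0 and 49.1 CPM in the CD4/ALK4-KO-labelled ones. The lowest WT and the highest CD4/ALK4-KO value nearly met. Its log2 fold change was -0.20 (95% interval -0.65 to 0.25, adjusted p = 0.52, edgeR). Betaglycan, encoded by *Tgfbr3* (chromosome 5, 107106570 to 107289629), had 103 and 105 CPM in the WT-labelled libraries and 75.9 and 97.3 CPM in the CD4/ALK4-KO-labelled ones, a log2 fold change of -0.26 (95% interval -0.70 to 0.18, adjusted p = 0.37, edgeR). Its groups did not overlap, but the gap between them was smaller than that between the CD4/ALK4-KO replicates. A gene on the same strand that is not among the symbols listed, *Gm43422*, shares 297 bp of exon with *Tgfbr3*.

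**Figure D2:**
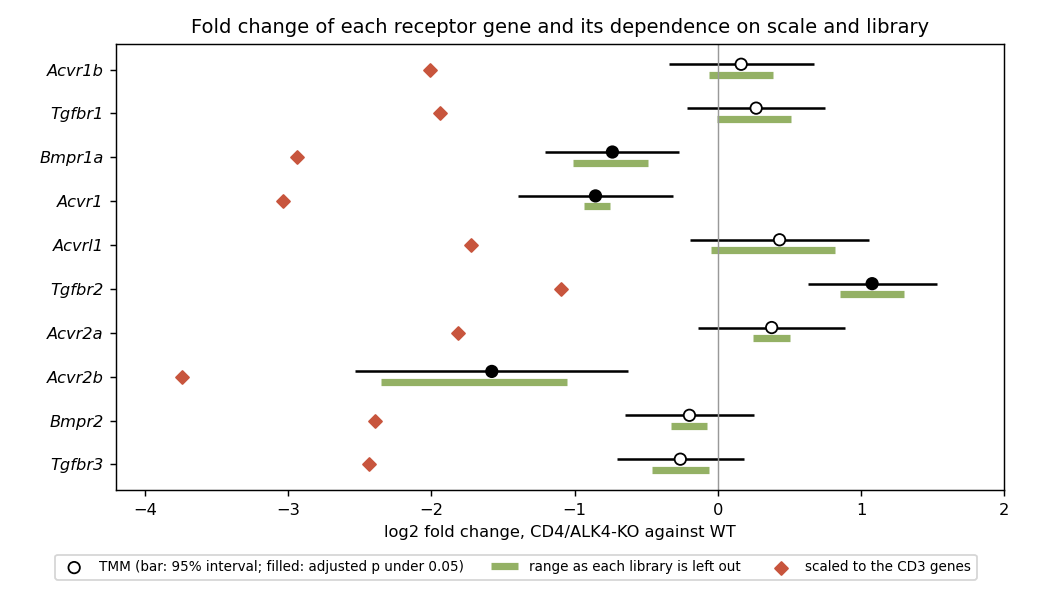
Log2 fold change of each receptor gene between the CD4/ALK4-KO-labelled libraries and WT (circles with 95% interval, filled where the adjusted p was under 0.05), its range as each library was left out (green), and its value with libraries scaled to the CD3 genes (diamonds). On the TMM scale *Tgfbr2* stands at 1.08 and *Acvr2b*, *Acvr1* and *Bmpr1a* at -1.58, -0.85 and -0.74, and on the CD3 scale all 10 values lie at or below -1.10.

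The calls of lower receptors depended on the WT libraries. Without WT replicate 1 or without WT replicate 2, none of the 3 lower receptors passed an adjusted p of 0.05 with edgeR, although the same number, 3 members, was lower at an unadjusted p under 0.05 in each case. These fits leave 1 WT library, which is assumed to vary like the others, and over all genes the number called lower was then 754 or 1047 in place of 2140. The log2 fold changes themselves stayed between -0.75 and -0.94 for *Acvr1*, between -0.49 and -1.01 for *Bmpr1a* and between -1.05 and -2.35 for *Acvr2b* as each library was left out. On the same 4 libraries, DESeq2's Wald test called 1 member higher and 3 lower, where 2274 of all genes were called higher and 1956 lower.

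Levels were compared between genes per length of exon, as RPKM over the union of the annotated exons. In the WT-labelled libraries the order was *Bmpr1a* (30.5 ± 2.08 RPKM, SD, n = 2), *Tgfbr1* (22.5 ± 4.30), *Tgfbr3* (15.9 ± 0.184), *Tgfbr2* (10.7 ± 0.105) and *Acvr1b* (6.38 ± 0.930), followed by *Acvr1*, *Acvrl1*, *Acvr2a*, *Bmpr2* and *Acvr2b* at 5.31 down to 1.53 RPKM. The 2 libraries of each gene lay apart from those of its neighbour in this order, except for *Acvrl1* with *Acvr2a* and *Acvr2a* with *Bmpr2*. In the CD4/ALK4-KO-labelled libraries the order was *Tgfbr1* (27.1 ± 7.22 RPKM), *Tgfbr2* (22.6 ± 4.49), *Bmpr1a* (18.3 ± 4.95), *Tgfbr3* (13.2 ± 2.31) and *Acvr1b* (7.14 ± 1.44). *Tgfbr1* overlapped with *Tgfbr2*, *Tgfbr2* with *Bmpr1a*, and *Bmpr1a* with *Tgfbr3*, whereas *Tgfbr3* lay above *Acvr1b* in both libraries. *Tgfbr1* also lay above *Bmpr1a* and *Tgfbr3*, and *Tgfbr2* above *Tgfbr3*, in both libraries. *Acvr1b* held the fifth place in both groups, and *Acvr2b* the last. When the length of the longest transcript replaced that of all exons, *Acvr1b* and *Acvr1*, and *Acvr2a* and *Bmpr2*, changed places in the WT-labelled libraries.

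Shares of the summed RPKM of the 10 receptors do not depend on the scaling between libraries. They add up to a fixed total, so a larger share of a gene lowers those of others. The type I receptors of the BMP branch made up 39.2% and 37.5% in the WT-labelled libraries and 26.8% and 23.7% in the CD4/ALK4-KO-labelled ones. Within this branch *Bmpr1a* and *Acvr1* had lower shares in both CD4/ALK4-KO-labelled libraries. *Acvrl1* overlapped between the groups, with 4.81% and 2.80% against 3.59% and 6.49%. *Tgfbr2* alone held 10.7% and 10.02% against 18.3% and 24.8%. *Acvr1b* and *Tgfbr1* together, the type I receptors of the activin and TGF-β branch, held 26.5% and 29.0% against 36.1% and 29.0%, and *Acvr1b* by itself 7.04% and 5.31% against 5.78% and 7.86%. The 3 type II receptors for activins and BMPs had 7.94% and 8.68% against 7.80% and 8.11%, within which *Acvr2b* went from 1.45% and 1.503% to 0.283% and 0.695%. Among single receptors, the groups overlapped for *Acvr1b*, *Acvrl1* and *Tgfbr1* and did not overlap for any other. They did not overlap for the summed BMP branch either. For receptors called higher or lower, the gap restates those calls and adds no support to them. How often groups do not overlap over all genes was not counted. With 2 libraries a group an exact permutation test cannot give a two-sided p below 0.333, so these shares were not tested.

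**Figure D3:**
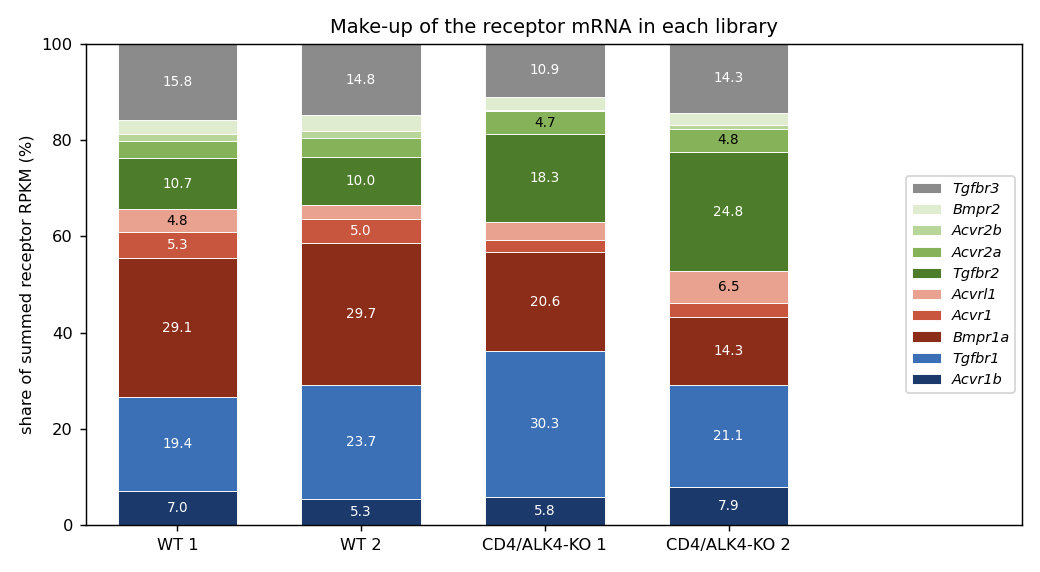
Share of each receptor gene in the summed RPKM of the 10 receptors in each library (percent, stacked from type I at the bottom to type III at the top). *Bmpr1a* has 29.1% and 29.7% in the WT-labelled libraries and 20.6% and 14.3% in the CD4/ALK4-KO-labelled ones, and *Tgfbr2* has 10.7% and 10.02% against 18.3% and 24.8%.

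Ratios of counts between receptors of the same library are also free of the scaling, and each is compared between libraries only. The ratios to *Acvr1b* were planned, whereas the other pairs were not part of that plan. *Tgfbr2* against *Bmpr1a* sets a gene called higher over a gene called lower, and *Acvr2b* was also called lower. The gap between the groups in these pairs therefore restates those calls and adds no support to them. There were 0.472 and 0.435 counts of *Tgfbr2* for each count of *Bmpr1a* in the WT-labelled libraries, against 1.15 and 2.24 in the CD4/ALK4-KO-labelled ones. *Tgfbr2* passed *Bmpr1a* in counts in both CD4/ALK4-KO-labelled libraries. For *Tgfbr2* against *Acvr1b* the ratios were 2.80 and 3.49 in the WT-labelled libraries and 5.88 and 5.86 in the CD4/ALK4-KO-labelled ones, the last 2 nearly equal although both genes differed between these replicates. The ratio of *Acvr2a* to *Acvr2b* went from 3.50 and 3.76 to 24.3 and 9.97. *Tgfbr1* against *Acvr1b* ran from 3.98 to 7.77 with overlapping groups.

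**Figure D4:**
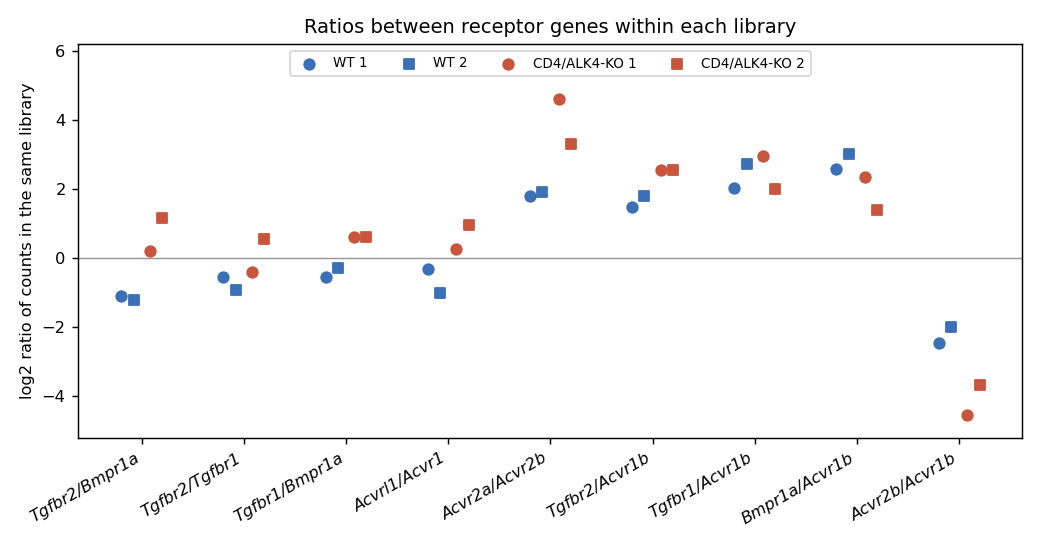
Log2 ratio of the counts of receptor pairs within each of the 4 libraries (circles, replicate 1; squares, replicate 2). *Tgfbr2/Bmpr1a*, which sets a gene called higher over a gene called lower, lies below 0 in both WT-labelled libraries (-1.08 and -1.20). It lies above 0 in both CD4/ALK4-KO-labelled ones (0.20 and 1.17), and *Tgfbr1/Acvr1b* overlaps between the groups.

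Genes whose profile over the 4 libraries was most like that of a receptor were sought among the 10459 genes that had 100 or more counts on average, by the root mean square distance of centred log2 CPM. Nearest to *Acvr1b* were *Edem2* (distance 0.0075, with 522, 423, 400 and 552 counts in WT 1, WT 2, CD4/ALK4-KO 1 and CD4/ALK4-KO 2), *Gpi1* (0.015) and *Arv1* (0.022). In all, 328 genes lay within 0.1 of *Acvr1b*, so this profile was common. Nearest to *Tgfbr2* were *Ppp1r13b*, *Mllt6* and *Plcl2* (0.015 to 0.023), with 100 genes within 0.1. Among the genes near *Acvrl1* were *Dnmbp* (0.061) and *Zfp408* (0.073), with 12 genes within 0.1. With 4 libraries these distances are descriptions only.

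The type I and II receptor genes that are no members had few counts. *Acvr1c*, which encodes ALK7, had 4, 2, 16 and 1 counts in WT 1, WT 2, CD4/ALK4-KO 1 and CD4/ALK4-KO 2, and was not tested. *Bmpr1b*, with 30 and 39 against 7 and 23 counts, and *Amhr2*, the receptor for anti-Müllerian hormone, with 37 and 45 against 10 and 33 counts, did not pass the threshold (log2 fold changes of -1.04 and -0.77, adjusted p = 0.20 and 0.30, edgeR).

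Of 10 genes for co-receptors and receptor-bound proteins, 8 were tested, and 5 fell and 2 rose in the CD4/ALK4-KO-labelled libraries on the TMM scale, where 15.4% of all genes tested were called lower and 17.4% higher. On the CD3 scale 7 of the 8 were called lower, against 92.0% of all genes. *Rgmb*, a BMP co-receptor, fell from 59.7 and 54.7 CPM to 17.3 and 29.2 CPM (log2 fold change -1.30, adjusted p = 0.000369, edgeR), and its relative *Rgma* fell from 5.84 and 5.18 to 1.43 and 2.997 CPM (log2 fold change -1.31, adjusted p = 0.031, edgeR). Endoglin (*Eng*), the co-receptor that works with ALK1, fell from 23.9 and 16.2 to 7.39 and 11.99 CPM (log2 fold change -1.05, adjusted p = 0.011, edgeR), whereas *Acvrl1* itself did not pass the threshold. *Vasn*, which encodes the TGF-β-binding vasorin, and *Fkbp1a*, which encodes the FKBP12 protein that binds the GS domain, fell with log2 fold changes of -1.08 and -0.61 (adjusted p = 0.0017 and 0.037, edgeR). Conversely, *Lrrc32*, which encodes GARP and tethers latent TGF-β to the surface of regulatory T cells, rose from 3.07 and 2.44 to 7.48 and 12.5 CPM (log2 fold change 1.85, adjusted p = 0.000704, edgeR), and was at -0.30 on the CD3 scale (adjusted p = 0.50). *Tgfbrap1*, which encodes a receptor-associated protein, rose with a log2 fold change of 1.36 on the TMM scale and was at -0.81 on the CD3 scale, and the pseudoreceptor gene *Bambi* was at 0.38 (adjusted p = 0.33). *Tdgf1*, with 0, 2, 13 and 4 counts, and *Hjv*, with none, were not tested.

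The ligands, antagonists, SMAD proteins and SMAD targets of the family were counted in the same way, and their calls are to be read beside the 17.4% of all genes called higher and the 15.4% called lower. Of 20 ligand genes 13 were tested and 1 was higher, *Inhba*, which encodes the subunit of activin-A, with 10.3 and 15.5 against 19.4 and 25.5 CPM (log2 fold change 0.80, adjusted p = 0.034, edgeR). It was named after its value was seen. The ligand genes with the most counts, *Tgfb1* and *Tgfb3*, were at 0.26 and -0.54 and did not pass. Of 12 antagonist genes 10 were tested and 3 were lower, among them *Grem1* (-1.64) and *Fstl3* (-1.48), named after their values were seen, with *Dcn*, a matrix proteoglycan that binds TGF-β, at -0.69 (adjusted p = 0.018, edgeR) and *Twsg1*, a BMP-binding protein, at -0.25, the latter not past the threshold. Of 8 SMAD genes 7 were tested and 1 was higher, the inhibitory *Smad7*, named after its value was seen, with 17.7 and 15.5 against 33.0 and 38.6 CPM (log2 fold change 1.11, adjusted p = 0.0016, edgeR). The SMAD genes with the most counts, *Smad5* and *Smad2*, were at -0.44 and -0.060 and did not pass. Of 15 SMAD regulators and target genes, 4 were higher and 2 lower. The higher ones other than *Id2*, named after their values were seen, were *Itgae* (2.03), *Ldlrad4* (1.05) and *Skil* (0.84), and *Id1* (-0.81) was among the lower ones. The genes of this list with the most counts were *Id2*, at 0.71 (adjusted p = 0.016, edgeR) and *Tgfbi*, at 0.36 (adjusted p = 0.20, edgeR). These directions are on the TMM scale. On the CD3 scale, *Inhba*, *Smad7*, *Id2*, *Itgae*, *Ldlrad4* and *Skil* were at -1.38, -1.07, -1.48, -0.16, -1.15 and -1.36. On that scale 92.0% of all genes tested were called lower with edgeR. The calls of lower genes in these lists were near that share. They covered 12 of 13 ligand genes, 10 of 10 antagonist genes, 7 of 7 SMAD genes and 14 of 15 SMAD regulators and targets.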

How the data were processed

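RNA-Seq (single-end reads of 75 bp, TruSeq RNA v2, a kit that does not mark strand) was made from lung tumor-infiltrating CD4+ T cells of 2 WT and 2 CD4/ALK4-KO samples. The authors aligned reads to mm10 with HISAT2 and counted them with HTSeq, per the labels, and deposited counts for each gene symbol, not normalized. Tool versions, annotation and strand setting are not given in the sources used here. Groups were taken from the sample labels.

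Genes were filtered with filterByExpr and scaled by TMM (edgeR 4.0.16, R 4.3.3), and genotypes were compared with edgeR's robust quasi-likelihood test, Benjamini-Hochberg adjusted over 13919 genes at 0.05. CPM used TMM-adjusted library sizes. Exons, lengths and sequences came from GENCODE M21 (GRCm38), where 24366 of the 25239 symbols matched (Biopython 1.88). The members and gene lists were chosen with earlier results of these data known. Named were all receptors and co-receptors, in each other pathway list the 2 genes with the most counts, *Cd4* and leading markers, and the 3 nearest profiles, for which log2 CPM used a pseudocount of 0.5. Genes said to be named after their values were seen, and *Robo4*, fall outside that rule. Some genes the rule or a count would name are not reported here.

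Alternatives were other scalings and filters, DESeq2 1.42.0, the replicate number as a block, and each library left out. Replicates differed by more than sampling noise (chi-square per degree of freedom 13.3 and 24.0). Totals of 11823908 to 13943237 counts limit genes of few counts such as *Acvr2b* the most.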

Additional observations from a re-analysis of the deposited data

How the results depend on the processing

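On the CD3 scale 48 genes were called higher and 12803 lower, and of the receptors 0 and 10. The log2 fold changes of *Acvr1b* (-2.01), *Acvr2a* (-1.81), *Acvrl1* (-1.72), *Tgfbr1* (-1.94) and *Tgfbr2* (-1.10) then turned negative, through the scaling itself, which shifts all genes by a median of -2.18. As each library was left out, the genes called higher numbered 1103 to 2923 and lower 754 to 2618, and the receptors 1 to 2 higher and 0 to 3 lower. The lowest counts came without WT replicate 1, with 1 WT library left. The log2 fold changes of *Acvr1b* (-0.065 to 0.39), *Acvrl1* (-0.047 to 0.82) and *Tgfbr1* (-0.0030 to 0.51) changed sign over these fits. With the replicate block, 1768 genes were higher and 1444 lower, and 1 receptor was lower in place of 3, the cause of which was not tested. Same-numbered libraries deviated from their group means with a correlation of -0.26 across genes. With 2 libraries a group, this value cannot show whether same-numbered samples were handled as pairs. A crossed replicate block, added after seeing the data, gave 3118 and 3037 genes, and 1 receptor higher and 3 lower. DESeq2 size factors, upper quartile scaling, DESeq2's Wald test, no filter and a minimum of 10 counts in every library each called 1 receptor higher and 3 lower. Over all genes these settings called 2149 to 2506 higher and 1956 to 2428 lower. Counts limit *Acvr2b* most, with 14 in CD4/ALK4-KO replicate 1.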

Other observations

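*Acvr1b* and its neighbour *Acvrl1* on chromosome 15 were both higher in WT replicate 1 than in WT replicate 2 and higher in CD4/ALK4-KO replicate 2 than in replicate 1. *Tgfbr1*, *Bmpr1a* and *Bmpr2* ran the other way in both genotypes, as did *Acvr2a* in CPM, though its CD4/ALK4-KO values were nearly equal (28.6 and 28.3 CPM). Such a profile was common, with 328 genes within 0.1 of *Acvr1b*, and a part of the shared location was not tested. *Acvr1b* had 426 and 342 counts in WT and 322 and 445 in CD4/ALK4-KO, *Acvrl1* had 281 and 174 and then 193 and 355, and *Tgfbr1* had 1741 and 2255 and then 2501 and 1771. The gap between replicates was larger than the difference between genotypes for each of these 3 genes.

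The CD8 and NK cell lists were also higher in the CD4/ALK4-KO-labelled libraries on the TMM scale. *Cd8a* and *Cd8b1* summed to 43.6 to 47.8 CPM in the WT-labelled libraries and to 192 to 310 CPM in the CD4/ALK4-KO-labelled ones, and the 6 NK cell genes to 95.9 to 149 and 379 to 407 CPM. On the CD3 scale only 48 of the 13919 genes tested were called higher with edgeR. None of the 2 CD8 genes and none of the 6 NK cell genes was among them. With so few genes called higher, this does not show that the 2 lists were level between the groups. Their median log2 fold changes on that scale were 0.26 and -0.24. Of the NK cell genes 1 was called lower, where 92.0% of all genes tested were. The part of these cells in the receptor counts was not tested.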
